A study of Mus musculus with 29 samples.

Results

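Binding of RNA polymerase III (Pol III) in regenerating mouse liver 48 h after partial hepatectomy (TP48) was set against binding before the operation (TP0), at all 646 loci of the deposited RPC4 table. RPC4 is a subunit of Pol III, and each library measured it by paired-end ChIP-seq in liver homogenate of male C57BL/6 mice aged 12 to 14 weeks. Each group had 2 libraries, replicates 1 and 2, and per the methods of the study each library held the livers of 3 mice, so that differences between single mice cannot be seen. All mice had food at night only. TP48 livers differed from TP0 livers by the operation and by 48 h of regrowth, which cannot be told apart here. Loci above the cutoff that the authors set for a library, in 1 or more of these 4 libraries, were counted as occupied, and these were 480 of the 646 loci.

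Scores are ChIP fragments divided by input fragments on a log2 scale, so that 1 unit is a factor of 2. The cutoffs were 0.81 and 1.46 in replicates 1 and 2 of TP48 and 0.84 and 1.33 in replicates 1 and 2 of TP0. The last locus inside the rule was the tRNA-Ala gene n-Ta8, with scores of 0.82 and 0.52 at TP48 and -0.08 and -0.10 at TP0. The first locus outside it was a B2 element at chr19:5786771-5786870, with 0.77 and 0.68 at TP48 and -0.12 and -0.07 at TP0. Coordinates are those of NCBI37 (mm9). Liver holds several cell types, and more Pol III per cell cannot be told apart from more cells of a type that binds it.

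Pol III makes short RNAs that cells need in bulk, among them tRNAs and 5S rRNA. In tRNA genes the signal that recruits it lies inside the gene, in an A box and a B box that the factor TFIIIC binds, and SINEs of the B2 and B3 families carry such boxes because they derive from tRNA genes. 5S genes have an internal promoter of another kind, and the U6, 7SK, RNase P, RNase MRP and Y RNA genes are driven from upstream by a type 3 promoter. Growing and dividing cells are known to need more of these RNAs, and the liver left after hepatectomy re-enters the cell cycle.

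Identical genes can be compared in these data. A set of 13 tRNA-Asp genes shares 1 gene sequence of 72 bases, and 4 of them are shown with 40 bases on each side, the gene in capitals, because they had very different scores.
n-Td11, chr13:22003142-22003293 (+): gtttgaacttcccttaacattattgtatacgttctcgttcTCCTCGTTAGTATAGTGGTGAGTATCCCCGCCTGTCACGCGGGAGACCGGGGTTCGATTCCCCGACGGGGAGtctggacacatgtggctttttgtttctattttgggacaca
n-Td12, chr13:22032148-22032299 (-): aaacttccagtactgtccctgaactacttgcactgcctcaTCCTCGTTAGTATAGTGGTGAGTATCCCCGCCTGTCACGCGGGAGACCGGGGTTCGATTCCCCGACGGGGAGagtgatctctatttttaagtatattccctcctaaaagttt
n-Td4, chr1:172967120-172967271 (-): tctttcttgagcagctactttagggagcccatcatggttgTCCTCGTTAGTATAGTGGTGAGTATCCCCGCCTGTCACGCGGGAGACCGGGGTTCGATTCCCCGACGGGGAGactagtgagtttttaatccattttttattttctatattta
n-Td10, chr11:7769740-7769891 (+): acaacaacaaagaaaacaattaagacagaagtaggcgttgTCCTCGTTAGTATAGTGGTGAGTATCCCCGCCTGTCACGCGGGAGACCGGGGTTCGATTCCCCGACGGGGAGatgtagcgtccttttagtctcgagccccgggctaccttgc

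Another 5 tRNA genes on chromosome 13 are shown whole, with the core of the B box in capitals. They had the largest moderated t (n-Ts10) and the largest change (n-Ta7), or were the intron-bearing genes whose precursor RNAs the study chose to measure (n-Tr23, n-Tl11 and n-Ty5).
n-Ts10, Ser AGA, chr13:22028963-22029044 (-): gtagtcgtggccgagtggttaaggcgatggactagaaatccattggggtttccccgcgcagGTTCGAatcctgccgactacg
n-Ta7, Ala AGC, chr13:23504810-23504882 (-): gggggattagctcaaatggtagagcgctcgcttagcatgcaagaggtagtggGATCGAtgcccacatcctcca
n-Tr23, Arg TCT, chr13:22009031-22009116 (-): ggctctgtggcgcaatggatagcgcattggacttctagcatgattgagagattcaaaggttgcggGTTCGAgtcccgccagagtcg
n-Tl11, Leu CAA, chr13:22006707-22006812 (+): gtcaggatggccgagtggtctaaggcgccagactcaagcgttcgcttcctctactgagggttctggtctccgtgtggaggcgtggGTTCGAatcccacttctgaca
n-Ty5, Tyr GTA, chr13:23518964-23519049 (-): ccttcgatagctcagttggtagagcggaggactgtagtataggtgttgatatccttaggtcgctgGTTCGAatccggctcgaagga
Read on the gene's own strand, GTTCGA stood in 59.4% of all 433 tRNA genes, GTTCAA in 32.1% and GATCGA in 3.93%, and a gene may hold more than 1 of them. Among the 185 tRNA genes that rose, these shares were 71.9%, 23.2% and 4.86%, against 71.4%, 23.5% and 5.44% of the 294 occupied tRNA genes.

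RPC4 binding was higher at TP48 at most Pol III loci. In the limma fit, 247 of the 480 occupied loci rose (51.5%, or 38.2% of all 646 loci) at a q under 0.05, and 0 fell (0%). No occupied locus had a negative change with an unadjusted p under 0.05 in the moderated t. The occupied loci with a positive change and such a p were the same 247, so that the q rule removed none of them and the 2 counts are not separate results. The q used an estimated share of 0.385 for loci without change. The risen loci were 185 of 294 occupied tRNA genes (62.9%), 49 of 104 SINEs (47.1%), 5 of 48 Rn5S genes (10.4%), 3 of 20 Rn4.5S genes (15%) and 5 of 14 other genes (35.7%). Changes of the risen loci ran from 0.98 to 4.41, with a median of 1.69. Both TP48 scores lay above both TP0 scores at 442 of the 480 occupied loci (92.1%), and at 0 loci did both lie below. Of the occupied loci, 76 passed a cutoff only at TP48 and 1 only at TP0. The occupancy rule itself thus favours rises in these and later shares of occupied loci. Without the 64 loci above both TP48 cutoffs and below both TP0 cutoffs, 196 of 416 occupied loci rose (47.1%).

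The median change was 1.12 over all occupied loci, 1.31 over tRNA genes, 1.11 over SINEs, 0.70 over Rn5S genes, -0.20 over Rn4.5S genes and 1.05 over the other genes. Median scores of the occupied loci were 4.32 and 4.76 in the TP48 libraries and 2.52 and 2.65 in the TP0 libraries. The libraries of the groups did not overlap, but an exact permutation test of 2 against 2 libraries cannot give a two-sided p below 0.333, which is the p found. At the 154 loci never above a cutoff in any RPC4 library, medians were 0.04 and -0.05 at TP48 and -0.02 and -0.04 at TP0, all near 0. The rule for these loci itself asks for low scores at both times, so that nothing is read from these medians.

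**Figure D1:**
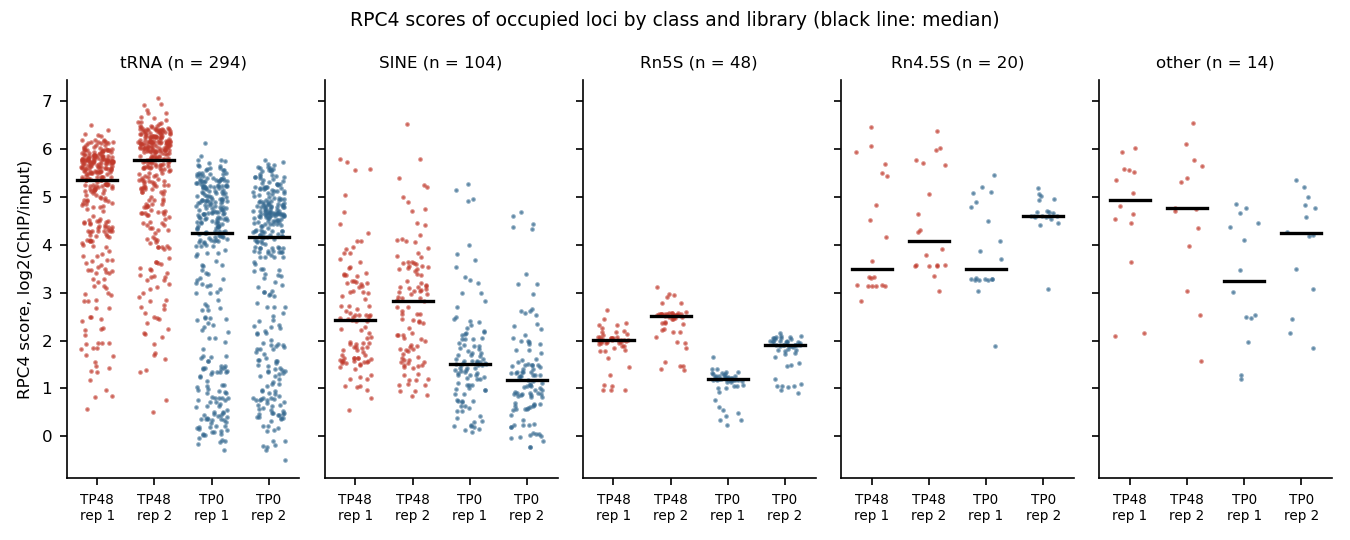
RPC4 scores (log2 of ChIP over input) of the 480 occupied loci, 1 point per locus, in each TP48 and TP0 library and in 1 panel per class, with the median as a black line. The tRNA medians were 5.37 and 5.77 at TP48 and 4.26 and 4.17 at TP0.

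The number of calls depended on the libraries in the fit and on the adjustment, in both directions. With the TP48 and TP0 libraries only, 431 loci rose, and in each fit without 1 of the 36 h libraries 323 did. With Benjamini-Hochberg adjustment, 133 of the 480 occupied loci rose (27.7%), comprising 108 tRNA genes, 23 SINEs and 2 other genes, and 0 Rn5S or Rn4.5S genes. Without replicate 2 of TP48, 47 loci rose, without replicate 2 of TP0 56, without replicate 1 of TP0 99 and without replicate 1 of TP48 146, and in the fits without a replicate 2 all risen loci were tRNA genes. With each library centred on its median over the occupied loci, which takes 1.96 out of the difference between the groups, 88 loci rose (80 tRNA genes and 8 SINEs) and 381 fell (209 tRNA genes, 91 SINEs, all 48 Rn5S genes, all 20 Rn4.5S genes and 13 other genes). This centring takes out more than the median change of 1.12. Replicate 1 lay below replicate 2 at TP48 by a median of 0.41. A core of 47 loci (9.79% of the occupied loci) rose in every fit that held them, apart from those centred on the occupied loci. In the latter fits 42 of them rose as well. Loci with many multiple matches, among them the core gene n-Tg18, were left out of 1 of these fits and could not fail it. All 47 were tRNA genes, with changes of 2.30 to 4.41 and TP0 means of at most 2.71.

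The 10 tRNA genes with the largest moderated t scored low at TP0 and had middling to high scores at TP48. n-Ts10, a tRNA-Ser gene, scored 5.19 and 5.65 at TP48 and 2.23 and 1.88 at TP0, a change of 3.37 ± 0.44 (SE, n = 2 libraries per group, limma q = 0.000588). n-Tr23, a tRNA-Arg gene with an intron, scored 3.95 and 5.24 at TP48 and 0.38 and 0.44 at TP0, a change of 4.18 ± 0.56. n-Tv19, a tRNA-Val gene, scored 4.37 and 5.23 at TP48 and 0.18 and 1.10 at TP0, a change of 4.16 ± 0.57. At each of these genes the lowest TP48 score stood more than 2 units above the highest TP0 score.

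The 7 others were n-Tv6 and n-Tv18 (tRNA-Val), n-Ta10 and n-Ta11 (tRNA-Ala), n-Th7 (tRNA-His), n-Ti9 (tRNA-Ile) and n-Tq4 (tRNA-Gln). Their changes ran from 3.18 ± 0.45 at n-Th7 to 4.08 ± 0.57 at n-Ta10, their TP48 scores from 4.08 to 5.90 and their TP0 scores from 0.30 to 2.17. All 10 genes shared a q of 0.000588 and a Benjamini-Hochberg p of 0.00153, and all 10 rose in every fit without a library. They lie on chromosome 13 (7 genes) or chromosome 3 (3 genes), outside protein-coding genes. n-Th7 begins 189 bases from the start of BC107364, and the others at least 7937 bases from any protein-coding start. n-Tv6 (chr13:23390650-23390722) and n-Ta11 (chr13:23390930-23391002) are close neighbours, so that their scores may rest in part on the same fragments.

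Of the genes chosen by the study for measuring precursor tRNAs, which still hold their intron, n-Tr23 is given above. n-Tl11, a tRNA-Leu gene, scored 4.6 and 5.48 at TP48 and 1.43 and 1.35 at TP0, a change of 3.66 ± 0.57 (q = 0.000744). n-Ty5, a tRNA-Tyr gene, scored 2.86 and 4.32 at TP48 and 1.27 and 0.70 at TP0, a change of 2.60 ± 0.56 (q = 0.00332). Both groups were well apart at each gene, although the TP48 replicates of n-Ty5 differed by more than 1 unit. Over the 4 isoacceptors that carry introns in mouse (Tyr GTA, Arg TCT, Leu CAA and Ile TAT), 14 of 21 occupied genes rose (66.7%) with a median change of 1.31, against 171 of 273 (62.6%) and 1.31 for the other isoacceptors.

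tRNA genes that scored high before the operation had the smallest median change. The 5 with the highest TP0 means were n-Tl16 and n-Tl15 (tRNA-Leu), n-Tn7 (tRNA-Asn), n-Tg26 (tRNA-Gly) and n-Th5 (tRNA-His), and none was called. n-Tn7, which overlaps an exon of Ndufs7, scored 6.16 and 5.96 at TP48 and 5.71 and 5.63 at TP0, a change of 0.39 ± 0.43 (limma q = 0.19). n-Tl16 scored 6.14 and 6.52 at TP48 and 6.13 and 5.22 at TP0, a change of 0.65 ± 0.54 (q = 0.14). The changes of the other 3 lay between 0.46 and 0.76.

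Among tRNA genes with a TP0 mean from 1 to 2, all 31 of which were occupied, 31 rose, with a median change of 2.58, and from 2 to 3 the count was 17 of 18, with a median of 2.38. From 3 to 4 the count was 23 of 30 (median 1.65), from 4 to 5 it was 64 of 106 (1.17), and above 5 it was 2 of 55 (0.81). The order is a description, since the TP0 score enters the change itself and a low score by chance at TP0 raises it. Nothing is read from genes with a TP0 mean of 1 or less, since 139 of these 193 genes were not occupied and 42 of the other 54 were occupied only through TP48.

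**Figure D2:**
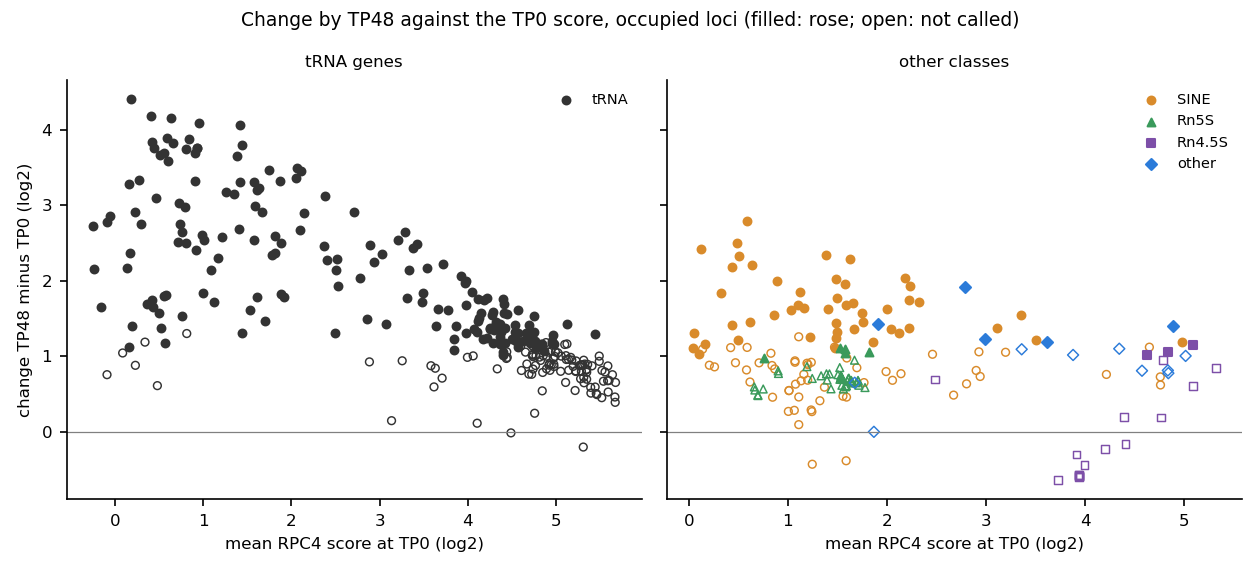
Change (TP48 minus TP0, log2, vertical) against the mean TP0 score (log2, horizontal) for the 480 occupied loci, tRNA genes on the left and the other classes on the right, filled where the locus rose. Median changes of tRNA genes were 2.58 at TP0 means from 1 to 2 and 0.81 above 5, low loci that stayed low are not plotted, and the Rn4.5S genes below 0 were not called.

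Among the chromosomes, 13 held the most risen tRNA genes. On chromosome 13, 86 of 102 occupied tRNA genes rose (84.3%) with a median change of 2.20, and 34 of the 47 core genes lie there. Core genes were 9 of 34 occupied tRNA genes on chromosome 3, 3 of 31 on chromosome 1 and 1 of 11 on chromosome 17. The count was 34 of 102 on chromosome 13 and 47 of 294 over all chromosomes. On chromosome 3, 23 of 34 rose (67.6%) with a median change of 1.72, at median TP0 scores of 1.76 and 2.21. A high risen share was not particular to chromosome 13. On chromosome 17, 10 of 11 occupied tRNA genes rose (90.9%) with a median of 1.38, and on chromosome 19 9 of 10 did (90%) with a median of 1.48. On chromosome 11, 15 of 42 rose (35.7%) with a median of 0.90, and on chromosome 14 2 of 11 did (18.2%) with a median of 0.53. Without chromosome 13, 99 of 192 occupied tRNA genes rose (51.6%), close to the 51.5% of all occupied loci, with a median of 1.12. Occupied tRNA genes of chromosome 13 had lower median TP0 scores (2.87 and 3.09) than those of the other chromosomes (4.56 and 4.52), and the part of the TP0 level in the difference was not tested.

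**Figure D3:**
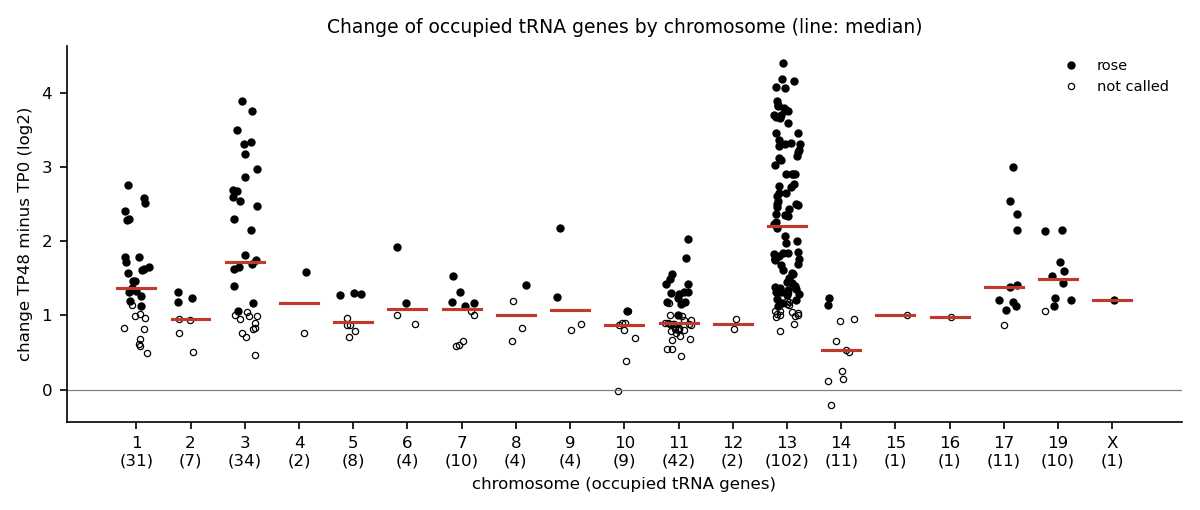
Change (TP48 minus TP0, log2) of the 294 occupied tRNA genes by chromosome, 1 point per gene, with the median as a line and the number of genes in parentheses. Chromosome 13 had a median of 2.20 and held the highest values, up to 4.41, and chromosome 14 had a median of 0.53.

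Some tRNA genes lie near histone genes, which S phase cells transcribe. Within 100 kb of a histone gene, 55 of 66 occupied tRNA genes rose (83.3%), with a median change of 1.99, against 130 of 228 (57.0%) and 1.18 farther away. Of the 47 core genes 19 lie within this distance and 28 farther away. Occupied tRNA genes within this distance had lower median TP0 scores (3.67 and 3.49) than those farther away (4.46 and 4.31). The parts of the TP0 level, of chromosome 13 and of the distance itself in the difference were not tested. The longest run with every gene risen spans chr13:21998980-22032864 and holds 15 tRNA genes, each less than 5 kb from the next. Among them are n-Tr23, n-Tl11, n-Ts10, n-Td11 and n-Td12. All 15 were occupied and rose, by 1.45 to 4.18, and their TP0 means ran from -0.09 to 4.32. At chr11:68850505-68855399, by contrast, 2 of 7 occupied genes rose, and the changes were 0.45 to 1.31 at TP0 means of 4.43 to 5.59. Of the 14 runs with at least 5 occupied genes, 5 had every occupied gene risen, 3 of them on chromosome 13 and 2 on chromosome 1. In the chromosome 1 runs, 2 of 5 and 5 of 5 genes passed the limit of 50% for fragments with several matches, so that their rises cannot be assigned to single copies. Neighbours in a run are not independent, since fragments can span both.

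Genes with the same sequence had different calls, although no test of the differences between genes was made. The 433 tRNA genes had 249 distinct gene sequences, and 15 sequences had at least 5 occupied genes. In all 15 some of these genes rose and others were not called. Between the lowest and the highest gene of a sequence the change differed by 0.46 to 3.61, while the median SE of a change was 0.51. That SE belongs to 1 gene, and a range over at least 5 genes is wider than it by noise alone. The smaller spans are therefore not read as differences between genes. Of the 13 tRNA-Asp genes shown above, n-Td11 scored 3.58 and 4.91 at TP48 and 0.51 and 0.60 at TP0, a change of 3.70 ± 0.60 (limma q = 0.000835). n-Td12, in the same run, scored 5.49 and 6.05 at TP48 and 4.14 and 4.51 at TP0, a change of 1.45 ± 0.54 (q = 0.0327).

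n-Td4 on chromosome 1 scored 5.82 and 6.25 at TP48 and 5.16 and 5.73 at TP0, a change of 0.59 ± 0.46 (q = 0.13). n-Td10 on chromosome 11 was not occupied, with 0.26 and -0.20 at TP48 and -0.05 and -0.35 at TP0. The same gene sequence was thus found at a locus that rose by a large amount, at loci that were high at both times and at a locus below the cutoffs. The share of a score from fragments that match more than 1 place was 0 to 11.1% at n-Td11, n-Td12 and n-Td4, but it reached 100% at the copy n-Td6, whose change of 1.57 cannot be assigned to that copy alone. Among the 9 tRNA-Asn genes of 1 sequence, 7 rose and changes ran from 0.39 to 3.32, and among the 7 initiator tRNA-Met genes of 1 sequence 2 rose, with changes of 0.79 to 3.31.

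**Figure D4:**
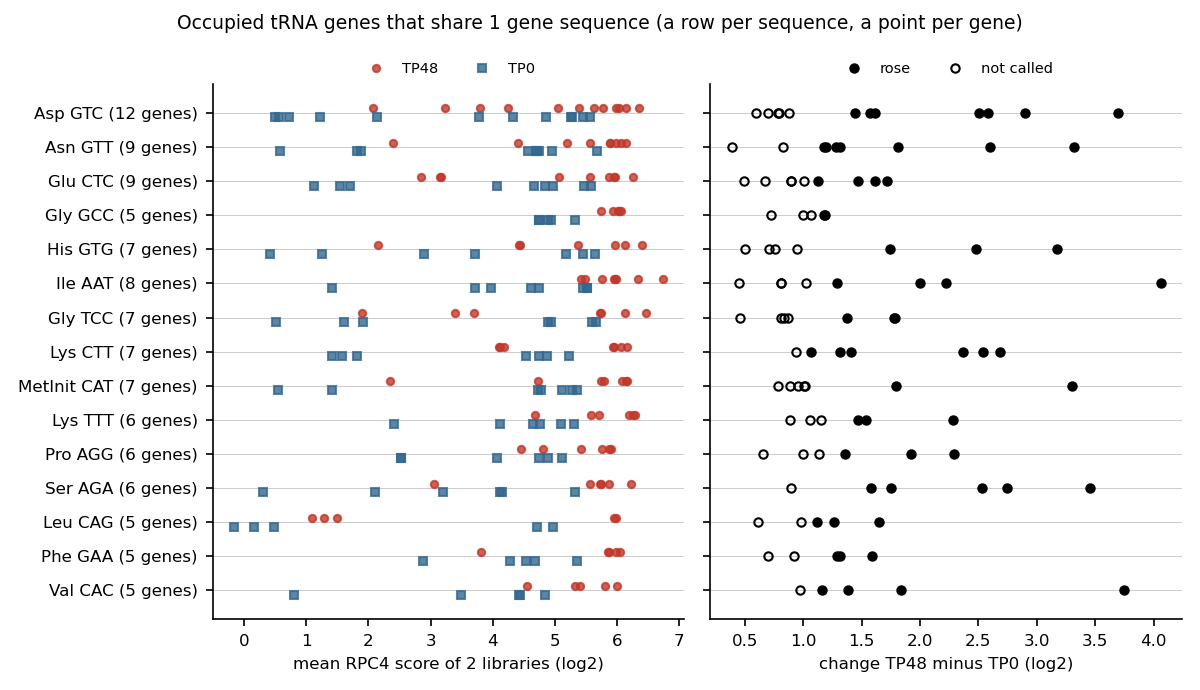
Occupied tRNA genes grouped by identical gene sequence, 1 row per sequence and 1 point per gene, for the 15 sequences with at least 5 occupied genes. The left panel gives the mean scores (log2) at TP48 and TP0 and the right panel the change, filled where the gene rose; the 12 occupied tRNA-Asp genes spread from 0.59 to 3.70.

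Over all occupied tRNA genes 62.9% rose. By isotype, the risen share was highest for tRNA-Val, with 17 of 18 occupied genes and a median change of 1.78, and for tRNA-Gln, with 12 of 14 and 1.77. All 7 occupied Val AAC genes (of 8) rose, with a median of 3.76. So did 9 of 10 Gln CTG genes, with a median of 2.81, and all 7 occupied Glu TTC genes (of 8), with a median of 1.33. Initiator tRNA-Met, which starts translation, had 2 of 7 risen with a median of 1.01, and Leu TAG 0 of 3 with a median of 0.65. Every isotype with more than 1 occupied gene had a median change above 0, the lowest being 0.89 for tRNA-Trp. Of the 57 tRNA-Cys genes 7 were occupied, and 4 of these rose (57.1%, near the share over all occupied tRNA genes), with a median of 1.17. The single occupied selenocysteine tRNA gene, which has a type 3 promoter, changed by 0.59 and was not called. Median TP0 means were 3.48 for tRNA-Val (Val AAC 1.44), 2.22 for tRNA-Gln (Gln CTG 1.84) and 3.84 for Glu TTC. They were 4.77 for initiator tRNA-Met, 5.17 for Leu TAG, 4.69 for tRNA-Cys and 3.86 for tRNA-Trp, against 4.25 over all occupied tRNA genes. The part of the TP0 level in these shares was not tested, and no test between isotypes was made.

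Newly occupied loci, below the cutoff in both TP0 libraries and above it in both TP48 libraries, numbered 64 (9.91% of 646). They were 43 tRNA genes, 24 of them on chromosome 13, 15 SINEs and 6 Rn5S genes, and 51 of the 64 rose in the fit, a count from which nothing is read because the rule itself asks for higher scores at TP48. The highest TP48 means among them were those of n-Tv19, n-Tv2, n-Ta12, n-Tr23 and n-Ta7. n-Ta7, a tRNA-Ala gene, had the largest change in the table, with 4.0 and 5.19 at TP48 and 0.19 and 0.18 at TP0, a change of 4.41 ± 0.64 (limma q = 0.000588). n-Tv2 (tRNA-Val) scored 4.09 and 5.29 at TP48 and 0.72 and 1.14 at TP0. n-Ta12 (tRNA-Ala) scored 4.28 and 4.93 at TP48 and 0.61 and 1.21 at TP0. At TP48 these genes, picked for their high TP48 means, had scores above the lower quartile of the occupied tRNA genes in at least 1 library. Over all 43 newly occupied tRNA genes the TP48 medians were 2.69 and 3.42. These lay below the lower quartiles of the occupied tRNA genes, which were 4.28 and 4.70.

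Opposite moves were rare. A single locus lost occupancy, a B2 element in an intron of Pde6c at chr19:38227174-38227273, which scored 0.55 and 1.09 at TP48 and 1.53 and 0.97 at TP0, so that the groups overlapped. Negative changes occurred at 16 of the 480 occupied loci, and 11 of them were Rn4.5S genes. The 139 tRNA genes below all 4 cutoffs included 50 tRNA-Cys genes.

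SINEs are mobile repeats of the mouse genome, and 49 of the 104 occupied ones rose, with none among the core loci. By family 32 of 56 B2 elements rose (57.1%), 4 of 7 B3 elements (57.1%), 6 of 24 B1 elements (25%), 6 of 11 composite loci (54.5%) and 1 of 6 others (16.7%), against 51.5% of all occupied loci, which the shares of B2, B3 and composite loci are near. Median changes were 1.21 for B2, 1.63 for B3 and 0.85 for B1, which derives from 7SL RNA and not from a tRNA. The difference between families was not tested. GTTCAA stood in 33 of the 49 risen SINEs (67.3%), against 54.8% of the occupied and 52.8% of all 127 SINEs. GTTCGA went the other way, with 1 of the 49 (2.04%) against 9.62% of the occupied and 8.66% of all SINEs. The part of the family in these shares was not tested. The B2 element with the smallest SE among the 5 named is shown with GTTCAA in capitals, in an intron of Aldh5a1.
B2_Mm1t, chr13:25022629-25022811 (+): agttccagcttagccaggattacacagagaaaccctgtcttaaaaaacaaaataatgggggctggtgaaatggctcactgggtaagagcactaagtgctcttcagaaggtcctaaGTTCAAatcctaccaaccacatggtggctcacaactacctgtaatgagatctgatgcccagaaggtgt

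This B2 element scored 3.22 and 3.84 at TP48 and 1.71 and 1.45 at TP0, a change of 1.95 ± 0.45 (limma q = 0.00446). A B3 element at chr5:135372305-135372576 had the largest t of any SINE, with 2.72 and 2.98 at TP48 and 1.08 and 0.19 at TP0, a change of 2.21 ± 0.50 (q = 0.00408). A composite of 2 B2 elements at chr11:101466556-101466655 scored 2.05 and 3.04 at TP48 and 0.22 and 0.02 at TP0, a change of 2.42 ± 0.55. In each of them the groups were clearly apart, at levels that stayed below those of most tRNA genes. The remaining named B2 elements lie in introns of 4833442J19Rik (chr6:149096989-149097088, change 2.00 ± 0.47) and Dlgap1 (chr17:71146704-71146803, change 2.32 ± 0.56). No SINE was called without replicate 2 of TP48 or without replicate 2 of TP0, 18 were called without replicate 1 of TP0 and 28 without replicate 1 of TP48. In introns of protein-coding genes 23 of 45 occupied SINEs rose, against 24 of 57 outside such genes, and transcription of the host gene was not examined.

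Rn5S genes code for the 5S RNA of the large ribosomal subunit, and this class had small positive changes. It also includes loci that the labels call Rn5S_like, taken from a repeat annotation. Among these are the called loci at chr8:126106747-126106868 and chr8:126125469-126125580. All 48 occupied genes had positive changes, of 0.48 to 1.11, and in 42 both TP48 scores lay above both TP0 scores. Their median scores were 2.01 and 2.52 at TP48 and 1.19 and 1.90 at TP0. The 5 that were called lie in the array on chromosome 8, within an intron of the gene model Gm20388, with q of 0.0388 to 0.0450 and Benjamini-Hochberg p of 0.10 to 0.12. The copy with the largest change, at chr8:126093228-126093346, scored 2.32 and 2.96 at TP48 and 1.26 and 1.8 at TP0, a change of 1.11 ± 0.46. At all 48, fragments with several matches in the genome made up over 50% of the score in 1 or more libraries, so that the copies share their reads and are not 48 separate measurements. With the TP48 and TP0 libraries only, 42 of 48 Rn5S genes rose, and with the replicate number as a block 9 did. No Rn5S or Rn4.5S gene was called in any fit without 1 of the TP48 or TP0 libraries.

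Rn4.5S genes, which code for a short rodent RNA related to B1 elements, lie in 2 blocks of chromosome 6. The 6 genes of the distal block all had both TP48 scores above both TP0 scores, with changes of 0.60 to 1.14, and 3 of them rose. The largest change was at chr6:128793305-128793400, with 6.47 and 5.99 at TP48 and 5.10 and 5.07 at TP0, a change of 1.14 ± 0.49 (limma q = 0.0439). With the replicate number as a block 1 Rn4.5S gene rose, and this copy and that at chr6:128753032 lost their calls, while 7 rose with the TP48 and TP0 libraries only. In the 14 genes of the proximal block changes ran from -0.64 to 0.69, and 0 were called. The copy at chr6:47635281-47635375 had the most negative change in the table, with 2.83 and 3.35 at TP48 and 3.04 and 4.41 at TP0, a change of -0.64 ± 0.62 (q = 0.17). Its groups overlapped, and without replicate 2 of TP0 the change was 0.046.

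A copy of each block is shown with GTTCGA in capitals. The sequence of the lower copy stands in 12 of the 20 Rn4.5S genes and that of the upper copy in 1.
Rn4.5S, chr6:128793305-128793400 (+): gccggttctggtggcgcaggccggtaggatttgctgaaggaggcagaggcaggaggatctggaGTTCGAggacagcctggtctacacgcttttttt
Rn4.5S, chr6:47635281-47635375 (-): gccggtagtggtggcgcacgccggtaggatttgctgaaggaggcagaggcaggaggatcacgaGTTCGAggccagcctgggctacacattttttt
The 12 copies with more than 50% of the score from fragments with several matches had a median change of -0.57, and the 8 others had 0.90, with 0 negative. The 11 copies with a negative change were all among the 12. Replicates of TP0 differed at these copies, with medians of 3.29 in replicate 1 and 4.61 in replicate 2, against 3.16 and 3.58 in the replicates of TP48. The part of the shared fragments in the negative changes was not tested.

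The other Pol III genes had positive changes at 14 of 15, and 5 were called. Rny1, which codes for a Y RNA, changed most, with 4.64 and 4.76 at TP48 and 2.5 and 3.08 at TP0, a change of 1.91 ± 0.51 (limma q = 0.0091). Rpph1, the RNA of RNase P, which trims the 5′ end of tRNA precursors, scored 3.65 and 3.03 at TP48 and 1.97 and 1.86 at TP0, a change of 1.43 ± 0.42 (q = 0.0132). Both genes passed the Benjamini-Hochberg adjustment as well, at 0.0237 and 0.0343, but Rpph1 was called in none of the fits without 1 of these 4 libraries, and Rny1 only in that without replicate 1 of TP48. Rnu6atac, a spliceosomal RNA for minor introns, scored 6.02 and 6.56 at TP48 and 4.78 and 5.0 at TP0, a change of 1.40 ± 0.51 (q = 0.0297).

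Of the 5 loci annotated as U6, 2 rose, at chr10:79371940-79372046 by 1.24 ± 0.53 (q = 0.0448) and at chr12:53704775-53704881 by 1.19 ± 0.53 (q = 0.0498). Both lost their calls with the replicate number as a block and, like Rnu6atac, in each fit without 1 of the TP48 or TP0 libraries. The groups overlapped at the U6 locus chr10:79448251-79448357, with 2.17 and 1.57 at TP48 and 1.29 and 2.45 at TP0. Rn7sk, whose RNA holds back the elongation factor P-TEFb, had a change of 1.10 ± 0.51 (q = 0.0526). Rmrp, the RNA of RNase MRP, which acts in rRNA processing, had a change of 1.02 ± 0.48 (q = 0.0569). At Rn7sk, Rmrp, Rny3, Vaultrc5 and both Rn7sl genes both TP48 scores lay above both TP0 scores, although these genes were not called. Over the type 3 genes, selenocysteine tRNA included, 5 of 12 occupied genes rose (41.7%) with a median of 1.10, near the 51.5% and 1.12 of all occupied loci.

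Genes with internal boxes other than tRNA genes and SINEs gave 0 calls besides those of the Rn4.5S genes. The Rn7sl genes for 7SL RNA of the signal recognition particle changed by 0.81 ± 0.42 and 0.78 ± 0.46, and the vault RNA gene Vaultrc5 by 1.01 ± 0.50. Bc1, a gene active in neurons, was below the cutoffs, with 0.67 and 0.38 at TP48 and 0.24 and -0.05 at TP0. Together with the Rn4.5S genes, 3 of 23 occupied type 2 genes rose (13%) with a median of 0.19, and all 3 were Rn4.5S genes. Of the 23 genes, 12 were Rn4.5S copies above the limit for fragments with several matches, with a median change of -0.57. The 8 other Rn4.5S copies had a median of 0.90. The 12 copies share reads and are not separate measurements. The pooled share and median depend on them, so that nothing about the promoter type is read from either.

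**Figure D5:**
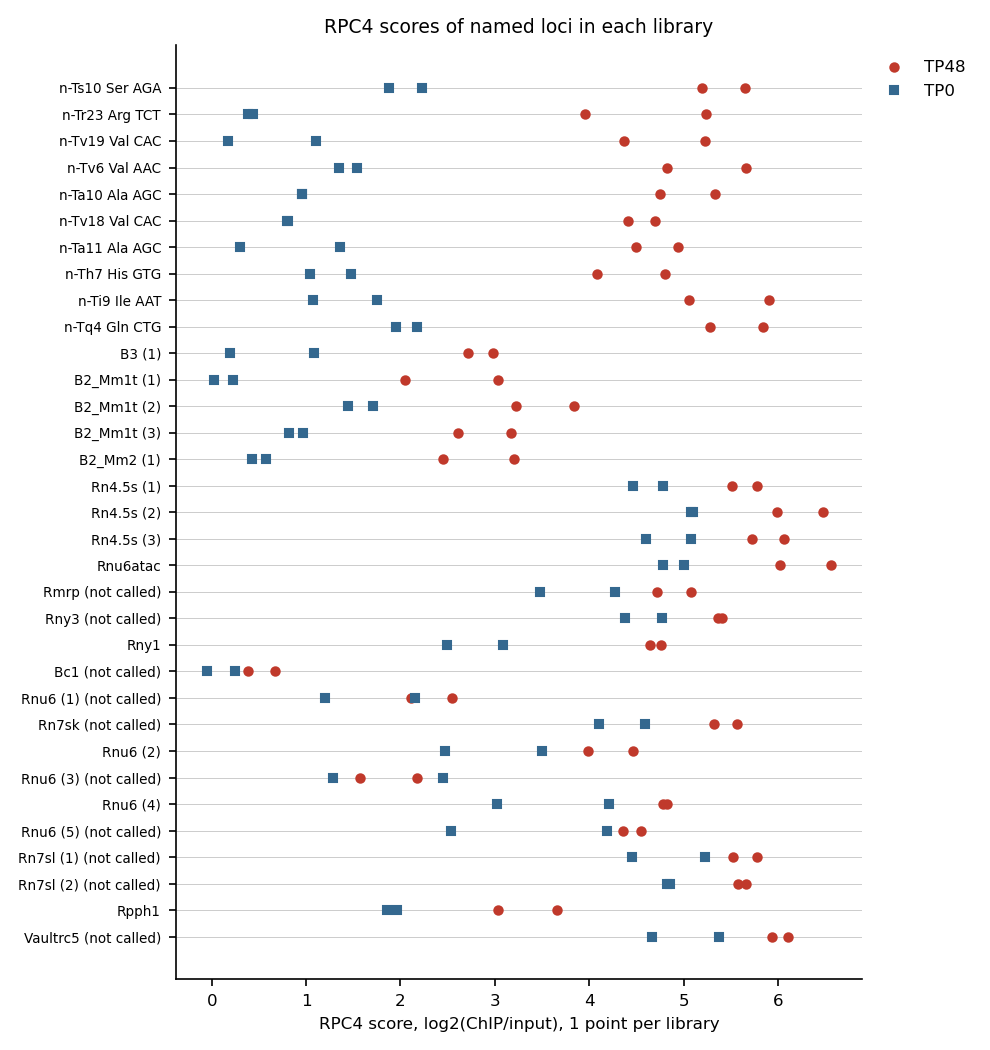
RPC4 scores (log2 of ChIP over input) of named loci, with 1 point per library for TP48 (circles) and TP0 (squares), and a number in parentheses where several loci share a name. From top to bottom stand the 10 tRNA genes and 5 SINEs with the largest t, the 3 called Rn4.5S genes and the other Pol III genes; the tRNA genes show the widest gaps, with changes of 3.18 to 4.18.

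No locus differed by the limma q between TP48 and the neighbouring time points. Median scores of the occupied loci were 4.74 and 4.02 at 36 h, 4.32 and 4.76 at TP48 and 4.28 and 5.32 at 60 h. In limma, 0 of 488 loci occupied at TP48 or 36 h differed between these times (5 at an unadjusted p under 0.05, all higher at TP48), and 0 of 487 differed between 60 h and TP48 (15 at an unadjusted p under 0.05, all higher at 60 h). With Benjamini-Hochberg adjustment both counts were 0 as well. n-Tr23 scored 5.34 and 4.48 at 36 h and 5.04 and 6.15 at 60 h, beside 3.95 and 5.24 at TP48. Rny1 scored 4.64 and 4.05 at 36 h and 3.44 and 4.81 at 60 h, beside 4.64 and 4.76 at TP48. The ranges of the replicates overlapped those of TP48 at n-Tr23 for both times and at Rny1 for 60 h, whereas at Rny1 both 36 h scores lay below both TP48 scores.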

How the data were processed

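RPC4 was measured by ChIP-seq in 8 libraries (TP0 and 36, 48 and 60 h, 2 replicates each). Per the labels and methods, the authors made the deposited scores from ChIP and input fragment counts as log2 ratios with a pseudocount over each extended locus, after scaling totals. The deposited percent values give the part of a score from fragments with several matches. The submitters' processing notes name bedtools and mm9. Columns with no sample numbered 0. Read depth is not known from scores, so that no counting interval can be given. Scores of all 646 loci and 8 libraries were fitted in limma 3.58.1 (R 4.3.3), with 4 times as levels and a two-sided moderated t. Calls are q under 0.05 (Storey), over all loci. Tables and figures used Python 3.11.15, pandas 2.3.3, numpy 2.4.6, scipy 1.17.1 and matplotlib 3.10.9. The fit was also run on simulated data with independent errors and most loci unchanged. In the real data loci share fragments and most occupied loci changed in 1 direction, so that nothing about the calls is read from that run. Replicates are pools, so p-values measure the spread between libraries.

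Named loci were the 10 tRNA genes and 5 SINEs called with the largest t, all called Rn5S and Rn4.5S genes, all other genes, the 5 most negative changes, the 5 highest tRNA genes at TP0, the 5 highest newly occupied loci, the 3 precursor tRNA loci and the loci next to the occupancy limit. Further loci stand as examples of lists and were chosen after their values were seen. Members and lists were chosen with earlier results of these data known. Exons, introns and start sites refer to protein-coding genes annotated on NCBI37, the genome from which sequences were read. Alternatives covered the adjustment, libraries in the fit, centring, replicate block, prior, cutoffs, multiple matches and single libraries.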

Additional observations from a re-analysis of the deposited data

How the results depend on the processing

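Of the loci, tRNA genes and SINEs, 133, 108 and 23 rose with Benjamini-Hochberg adjustment, 431, 280 and 89 with the TP48 and TP0 libraries only (341, 249 and 71 with Benjamini-Hochberg adjustment), and 166, 131 and 32 when only occupied loci were fitted, with that adjustment. Centring on the occupied loci gave 88, 80 and 8 risen and 381 fallen loci, or 44, 44 and 0 risen and 234 fallen with Benjamini-Hochberg adjustment (a setting chosen after seeing the data), and the median change became -0.83, because this centring takes out 1.96 of the difference. Without 1 library the counts of risen loci ran from 47 to 323, of tRNA genes from 47 to 237 and of SINEs from 0 to 67, and the median change from 0.99 to 1.28. Newly occupied loci numbered 82 with raised cutoffs and 51 without loci of many multiple matches, and 66 to 106 without 1 library (chosen after seeing the data).

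With a replicate block 197 loci rose, 146 of them tRNA genes and 38 SINEs. The labels do not say whether a replicate number marks a shared day or batch. Same-numbered TP48 and TP0 libraries deviated with a correlation of 0.10, other pairs of times gave -0.28 to 0.54, and cutoffs were lower in replicate 1 than in replicate 2 at every time, so that whether the numbers pair the samples was not settled. Of the 55 named loci 51 kept their side of the threshold under the block and 4 lost their call (Rn4.5s 6:128793305, Rn4.5s 6:128753032, Rnu6 10:79371940 and Rnu6 12:53704775).

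Centred on the occupied loci, with either adjustment, 30 named loci changed sign: B2_Mm1t 13:25022629 -0.0029, Rn5S_like 8:126106747 -0.90, Rn5S_like 8:126125469 -0.98, Rn5S 8:126093228 -0.85, Rn5S 8:126072856 -0.91, Rn5S 8:126123761 -0.86, Rn4.5s 6:128788477 -0.93, Rn4.5s 6:128793305 -0.81, Rn4.5s 6:128753032 -0.90, Rnu6atac -0.55, Rmrp -0.94, Rny3 -1.15, Rny1 -0.043, Bc1 -1.52, Rnu6 9:62981090 -1.31, Rn7sk -0.85, Rnu6 10:79371940 -0.72, Rnu6 12:53704775 -0.77, Rnu6 12:53705477 -0.86, Rn7sl 12:70260298 -1.14, Rn7sl 12:70462167 -1.18, Rpph1 -0.53, Vaultrc5 -0.95, n-Tl16 -1.30, n-Tn7 -1.56, n-Tg26 -1.49, n-Th5 -1.20, n-Tl15 -1.28, n-Ta8 -1.20, B2_Mm2 19:5786771 -1.13. Without 1 library, uncalled changes that took another sign ranged as follows, highest in each case without TP0 replicate 2: Rnu6 10:79448251 -0.58 to 0.58, Rn4.5s 6:47635281 -1.32 to 0.046, Rn4.5s 6:47626642 -1.27 to 0.0804, Rn4.5s 6:47613660 -1.24 to 0.057, Rn4.5s 6:47604999 -1.25 to 0.073, Rn4.5s 6:47622304 -1.26 to 0.088. The cause of the differences between fits without 1 library was not tested. With 2 pooled libraries per time and no known depth, precision is limited: Rn5S genes called numbered 0 in each fit without 1 of the TP48 or TP0 libraries, 0 with Benjamini-Hochberg adjustment over all 8 libraries and 7 with that adjustment over the TP48 and TP0 libraries only.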
